A study of Sus scrofa with 6 samples.

Results

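Immunoglobulin and lymphocyte genes were examined in backfat of castrated and intact male pigs, as the probe sets annotated to 1 of 8 genes: LOC396781, CD79B, CD3E, CD2, CD4, CD8A, CORO1A and GATA3. These 8, of the 6765 genes with a single symbol on the array, were represented by 14 probe sets, of which 3 belonged to CORO1A, 4 to GATA3, 2 to CD4 and 1 to each of the 5 other genes. The genes were picked with the difference between castrated and intact pigs already known, so their values in that comparison are given as a description, and nothing is concluded from how many of them differ.

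The samples address what castration does to transcripts of pig subcutaneous fat. Barrows were castrated by surgery under anaesthesia at 7 days of age, and boars, their full brothers, kept both testes. All were 175 days old at slaughter, came from Pietrain sires and Landrace dams, and were fed without restriction, and the sampled tissue was the middle backfat layer over the 6th rib. Each of the 3 barrow arrays and 3 boar arrays measured RNA pooled in equal amounts from 5 pigs of 1 kind, so a replicate is a pool and the spread between single pigs is not seen. Signals are MAS5 intensities on a linear scale. The adipocyte genes FABP4 and ADIPOQ gave signals of 15578 to 23039 in barrow pools and 17794 to 23053 in boar pools. Pairwise Pearson r of tested log2 values was 0.978 to 0.988 within groups and 0.975 to 0.983 across them. Over the whole array 167 probe sets passed the test described below, and 291 did without barrow pool 2. That pool was the lowest of the barrow pools in 40.1% of all tested probe sets. Signals of different probe sets are not on a common scale, and detection calls were not used here.

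An immunoglobulin G molecule is built from heavy and light chains and is secreted by plasma cells, which descend from B cells. B cells carry a receptor whose signal passes through CD79A and CD79B, and T cells one whose signal passes through the CD3 chains and CD247. CD4 and CD8 are the coreceptors of T cells, and adipose tissue holds both kinds of lymphocyte among its stromal and vascular cells. In tissue RNA, fewer cells of a type and less RNA per cell cannot be told apart.

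LOC396781 was the member with the greatest difference between the groups. RefSeq (Sscrofa11.1) lists it with the synonym IGHG, a name for the heavy chain of immunoglobulin G. Its signal was 2356, 1000 and 2093 in barrow pools 1 to 3, against 4601, 3614 and 4485 in boar pools 1 to 3. All 3 barrow pools lay below all 3 boar pools, and barrow pool 2 was far below the other barrow pools, so the spread on the log2 scale was wider in barrows (SD 0.66) than in boars (SD 0.19, n = 3 each). On log2(signal + 16), where 16 is a pseudocount that damps the noise of dim probe sets, the barrow mean was 10.75 and the boar mean 12.04. The difference was -1.30 (95% interval -1.86 to -0.73), a 2.46-fold higher signal in boars (1.66 to 3.63). Pigs carry several closely similar immunoglobulin G heavy chain genes, and how far the probe set tells them apart was not tested.

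A probe set was tested when its mean log2 value over all 6 arrays was in the upper 60%, at or above 6.76, a signal of about 92.7. Of the 14 member probe sets 9 were tested and 5 were not. In the fit over all 14399 tested probe sets, 1 of the 9, LOC396781, had an adjusted p under 0.05 (limma adjusted p = 0.040), where 1.16% of all tested probe sets did. That call was lost without barrow pool 3 (limma adjusted p = 0.071), without boar pool 1 (0.21), boar pool 2 (0.054) or boar pool 3 (0.20), without the intensity trend (0.16) and without the filter (0.094). Without barrow pool 2, the lowest of all, the difference was -0.92 (limma adjusted p = 0.0031).

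**Figure D1:**
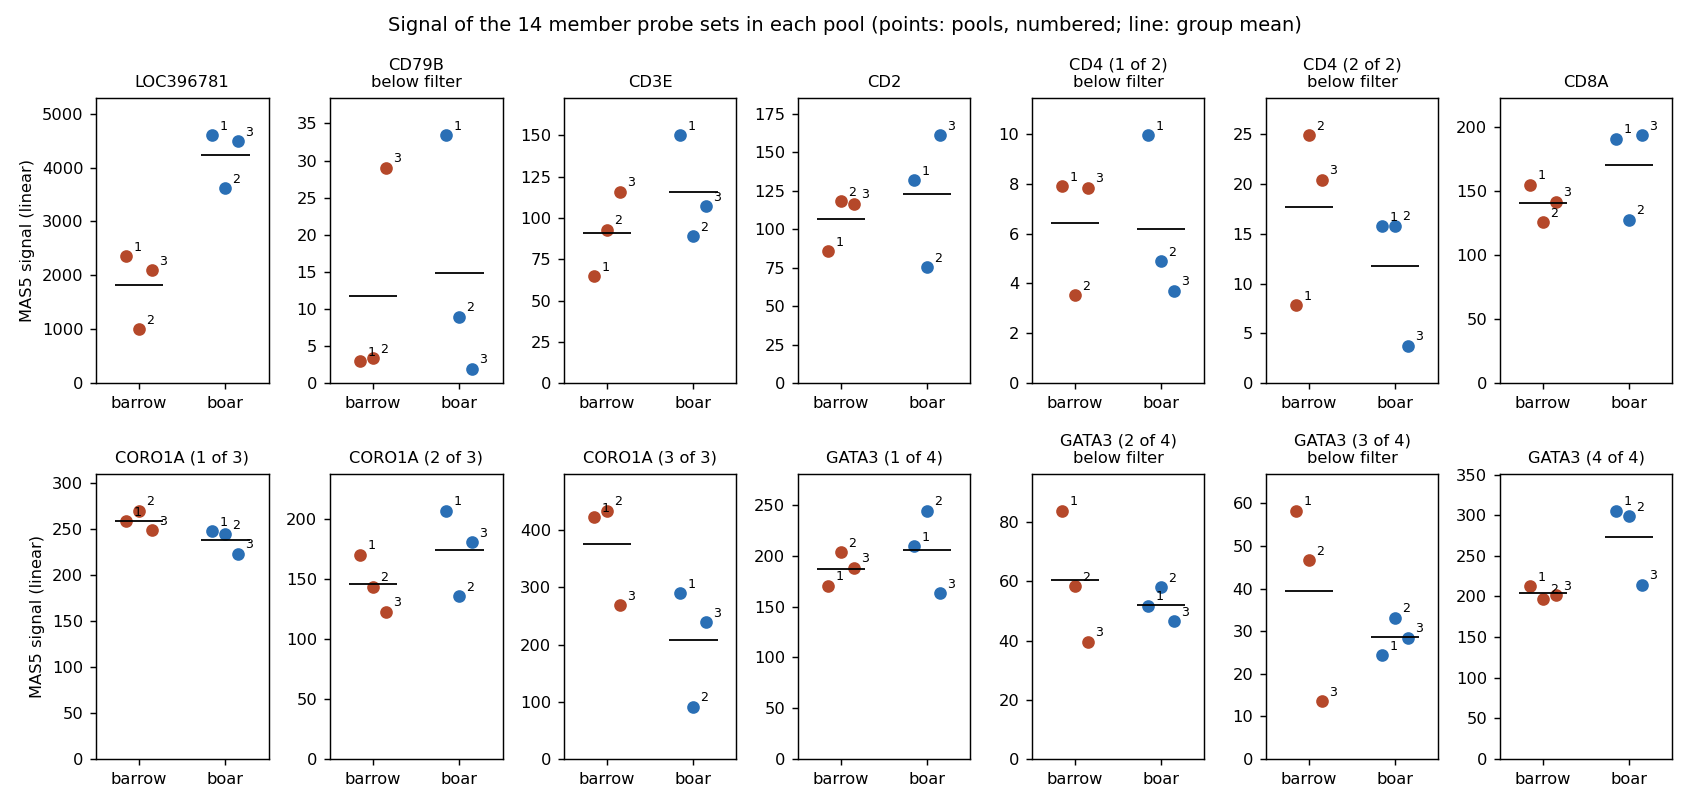
Linear MAS5 signal (vertical axis, from 0) of each of the 14 member probe sets in barrow pools (red, left) and boar pools (blue, right), with pool numbers and a line at the mean of 3 pools. The groups are apart for LOC396781, with barrow pools at 1000 to 2356 and boar pools at 3614 to 4601, and overlap in most other panels; vertical scales differ between panels.

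CD79B, the signalling chain of the B cell receptor, was close to the bottom of the scale. It read 2.9, 3.4 and 29.0 in barrow pools and 33.4, 9.0 and 2.0 in boar pools, with the highest values of each group in a different pool number and full overlap. It was below the filter and is not shown to exceed background in either group. No probe set carried CD79A or MS4A1 as its single symbol, so mature B cells are represented by CD79B and by genes shared with other cells. CD79B thus gives no measurement of B cells to set beside that of LOC396781.

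CD3E, a chain of the T cell receptor complex, had a signal of 64.7, 92.9 and 116 in barrow pools and 150, 89.0 and 107 in boar pools. The groups overlapped, and the log2 difference was -0.30 (95% interval -0.85 to 0.25). Its barrow mean of 6.71 lay below the lowest tested mean, so it passed the filter through its boar signals.

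CD2, an adhesion receptor of T and natural killer (NK) cells, read 85.7, 118 and 117 in barrow pools and 132, 75.6 and 161 in boar pools. The lowest and the highest of the 6 values were both from boars, and the difference was -0.13 (95% interval -0.70 to 0.43). CD8A, which in pigs is carried by cytotoxic T cells, by NK cells and by part of the CD4+ T cells, read 155, 126 and 141 in barrow pools and 191, 128 and 193 in boar pools. Boar pools 1 and 3 were above every barrow pool and boar pool 2 was among them, with a difference of -0.24 (95% interval -0.66 to 0.19). Each of these intervals includes 0 and also includes a fall of 0.5, so neither a stable T cell signal nor a modest loss is shown.

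The 2 probe sets of CD4, the coreceptor of helper T cells, were below the filter. The first read 3.5 to 7.9 in barrow pools and 3.7 to 9.9 in boar pools, and the second 7.9 to 24.9 in barrow pools and 3.8 to 15.8 in boar pools. CD4 is not shown to exceed background in either group.

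The 3 probe sets of CORO1A, which encodes an actin-binding protein of leukocytes needed for T cell survival, did not move together. Probe set 3 read 423, 434 and 269 in barrow pools and 290, 91.6 and 240 in boar pools, a difference of 0.91 (95% interval 0.17 to 1.66). Its boar pool 2 was far below the rest, and barrow pool 3 lay below boar pool 1, so the groups overlapped. Probe set 1 read 259, 270 and 249 in barrow pools and 247, 244 and 223 in boar pools, with no overlap but a difference of only 0.11 (95% interval -0.17 to 0.40). Probe set 2 read 170, 143 and 122 in barrow pools and 207, 135 and 180 in boar pools, and its difference was -0.23 (95% interval -0.66 to 0.20). A direction for CORO1A as a gene cannot be given from these probe sets.

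GATA3, the transcription factor of type 2 helper T cells, is also made by other cells, in mice by fat cell precursors among them. Its probe set 4 read 212, 197 and 201 in barrow pools and 305, 299 and 215 in boar pools. The groups did not overlap, though barrow pool 1 and boar pool 3 were close, and the difference was -0.38 (95% interval -0.73 to -0.03). Probe set 1 read 171 to 204 in barrow pools and 163 to 245 in boar pools (difference -0.11, 95% interval -0.49 to 0.27). Probe sets 2 and 3 were below the filter, at 39.6 to 83.9 and 13.5 to 58.3 in barrow pools and 46.5 to 58 and 24.4 to 33.1 in boar pools, and their differences were above 0 (0.13 and 0.21). The direction again depended on the probe set.

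Over the 9 tested member probe sets 7 differences were below 0 and 2 above, with a median of -0.23, against a median of -0.01 over all tested probe sets, 53.4% of which were below 0. The groups did not overlap in 3 of the 9, the LOC396781 probe set, probe set 1 of CORO1A and probe set 4 of GATA3, where 18.1% of all tested probe sets did not overlap. The 3 run in both directions, and the membership was not independent of this comparison.

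The immunoglobulin signal was set against the T cell signal within each pool, as the log2 value of LOC396781 minus the mean log2 value of the 5 probe sets of CD3E, CD2, CD4 and CD8A. The 2 CD4 probe sets among them are not shown to exceed background, so the mean over all 5 rests in part on values that may carry no T cell signal. This quantity was 5.30, 3.86 and 4.81 in barrow pools and 5.78, 5.87 and 5.99 in boar pools. Every barrow pool was below every boar pool, with means of 4.66 ± 0.73 and 5.88 ± 0.10 (SD, n = 3 each) and a difference of -1.22. Its absolute size has no meaning across probe sets, and the difference was not tested because its members were chosen on it. The T cell mean alone was 6.09 ± 0.16 in barrows and 6.16 ± 0.22 in boars, a difference of -0.07. With CD3E, CD2 and CD8A only, the T cell mean was 6.98 ± 0.16 in barrows and 7.20 ± 0.35 in boars, a difference of -0.22, and the difference of immunoglobulin minus T cell signal was -1.07. That choice was made after the data were seen.

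**Figure D2:**
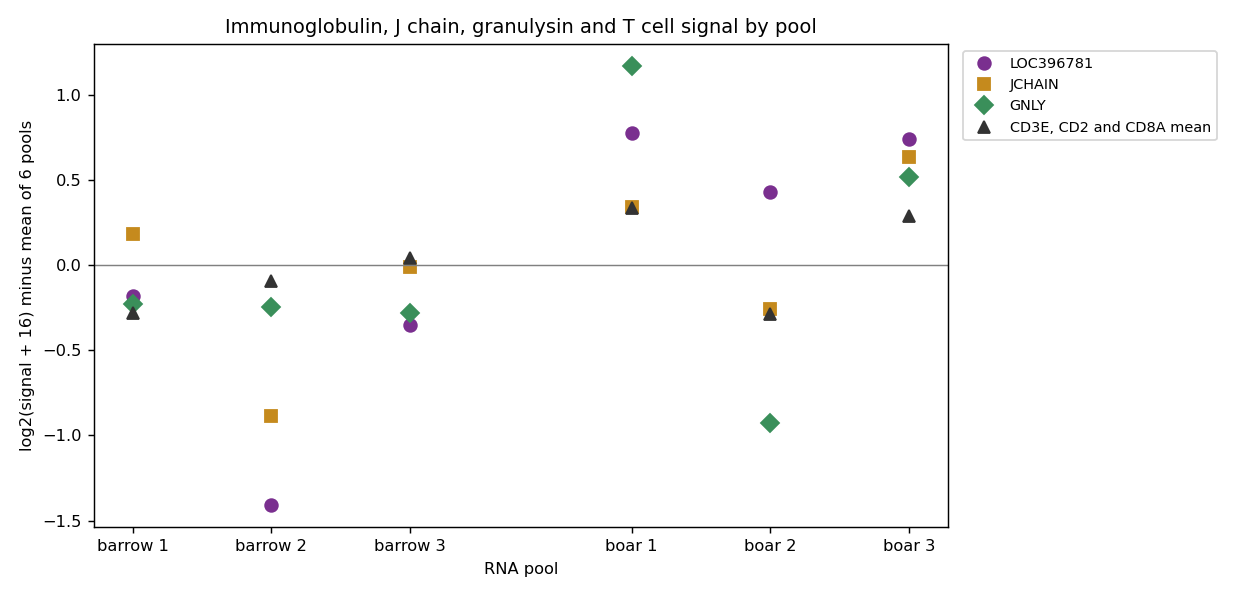
Log2(signal + 16) in each pool minus the mean of the 6 pools (vertical axis) for LOC396781, the J chain gene JCHAIN, the granulysin gene GNLY and the mean of CD3E, CD2 and CD8A, with barrow pools on the left and boar pools on the right. LOC396781 is at -1.41 in barrow pool 2 and between 0.43 and 0.78 in boar pools, while the T cell mean stays between -0.29 and 0.34 in all pools.

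Other genes were read from 9 lists of lymphocyte biology holding 182 genes, of which 80 had a probe set. Members left out, 57 probe sets of 44 genes were tested. Of these 1 fell, that of CCL19, and 0 rose (limma adjusted p under 0.05), where 0.458% of all tested probe sets fell and 0.701% rose. At an unadjusted p under 0.05 there were 9 lower and 1 higher in barrows (17.5%, against 12.2% of all tested). Differences were below 0 in 45 of the 57 and above 0 in 12, with a median of -0.12, and the groups did not overlap in 14 (24.6%, against 18.1% of all tested). Without barrow pool 2 the median was -0.11 and 42 of the 57 were below 0.

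In the list of plasma cell and immunoglobulin genes, 0 of 5 tested probe sets outside LOC396781 passed the test. Among the 5 was that of FCGRT, a receptor of immunoglobulin G that is not taken here as a plasma cell marker. JCHAIN, the joining chain of polymeric immunoglobulin A and M, read 495, 228 and 432 in barrow pools and 554, 360 and 684 in boar pools (difference -0.48, 95% interval -1.09 to 0.14, limma adjusted p = 0.55). The groups overlapped, but the lowest pool of each group was number 2 for JCHAIN as for LOC396781. With the group means taken out, the log2 values of both genes over the 6 pools had a Pearson r of 0.91, against 0.72 for XBP1, 0.56 for SDC1, 0.46 for FKBP11 and -0.40 for FCGRT. Such an r with LOC396781 was not particular to this list. In the same way it was 0.82 for the actin gene ARPC1B and 0.97 for TMED4, a gene in no lymphocyte list. It was -0.98 for the adhesion gene CD58. These are descriptions over 6 arrays that also share their scaling.

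XBP1, a transcription factor that enlarges the secretory apparatus of plasma cells and of other secreting cells, had a difference of -0.06 (95% interval -0.21 to 0.09), and FKBP11, a folding enzyme of secretory cells, one of -0.19 (95% interval -0.40 to 0.02). SDC1, the surface proteoglycan syndecan-1 that marks plasma cells and also epithelium, was read in opposite ways by its probe sets. The tested one was 195, 189 and 220 in barrow pools and 130, 122 and 121 in boar pools (difference 0.63, limma adjusted p = 0.091). A dim one below the filter was 23.5, 14.4 and 16.7 in barrow pools and 62.6, 71.8 and 60.1 in boar pools, and the 2 others, also below the filter, had differences of -0.21 and 0.04. The plasma cell receptor TNFRSF17 was at 1.5 to 3.5 in barrow pools and 3.4 to 8.8 in boar pools, below the filter. Whether these differences differ from that of LOC396781 was not tested.

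Of the B cell genes 0 of 5 tested probe sets passed, with 2 below 0 and 3 above. BTK, a kinase downstream of the B cell receptor that myeloid cells also make, had a difference of -0.33 (limma adjusted p = 0.51), and the adaptor BLNK one of 0.14 (limma adjusted p = 0.85). The 3 probe sets of CD40, a receptor for T cell help, had -0.19, 0.18 and 0.20.

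Of the T cell receptor genes outside CD3E, 0 of 6 tested probe sets passed and 5 were below 0. CD247, the zeta chain, had -0.21 in 1 probe set and -0.19 in another (limma adjusted p = 0.56 and 0.72). Without barrow pool 2, in which it was highest at 1258, the second had -0.41 (limma adjusted p = 0.046, where 2.02% of all tested probe sets passed). The kinase FYN had -0.18 and the adaptor LAT 0.21 (limma adjusted p = 0.80 and 0.78). A brighter FYN probe set had -0.06 (limma adjusted p = 0.91). CD3D, CD3G and the kinase LCK were below the filter, with CD3D at 36.2 to 93.5 in barrow pools and 75.4 to 119 in boar pools.

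Of the cytotoxic and NK cell genes 0 of 5 tested probe sets passed and 4 were below 0. GNLY, granulysin, a pore-forming protein of cytotoxic granules, read 298, 294 and 286 in barrow pools and 810, 177 and 510 in boar pools. The barrow pools were nearly alike and the boar pools ranged on both sides of them, so the difference of -0.51 (95% interval -1.39 to 0.37) was within the spread of boars. Without boar pool 2 it was -1.10 (limma adjusted p = 0.027, where 1.31% of all tested probe sets passed). FCGR3A, an immunoglobulin G receptor of NK cells and macrophages, had -0.30 and the chemokine CCL5 -0.25 (limma adjusted p = 0.32 and 0.54).

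Boar pool 2 was the lowest of the boar pools in CD3E, CD2, CD8A and GNLY. Over the 15 tested probe sets of the T cell receptor, coreceptor and cytotoxic lists it was the lowest in 10 (66.7%), where it was the lowest of the boar pools in 36.5% of all tested probe sets. This count was made after the values were seen. Barrow pool 2 was the lowest of the barrow pools in 4 of the same 15 (26.7%), against 40.1% of all tested probe sets, although it was the lowest in LOC396781 and JCHAIN. By list, barrow pool 2 was the lowest in 3 of 7 T cell receptor, 1 of 3 coreceptor and 0 of 5 cytotoxic probe sets. CD8A was lowest in barrow pool 2, as LOC396781 and JCHAIN were, while CD3E and CD2 were lowest in barrow pool 1. Among boars, LOC396781 and JCHAIN were also lowest in pool 2. No contrast between antibody genes and T cell genes is drawn from these orders.

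In the homing list 1 of 11 tested probe sets fell and 0 rose. CCL19, a chemokine that draws T cells and dendritic cells through the receptor CCR7, read 870, 770 and 827 in barrow pools and 1226, 1115 and 1299 in boar pools. The groups were well apart, with a difference of -0.55 (95% interval -0.76 to -0.34, limma adjusted p = 0.024). The call was lost without barrow pool 1 (limma adjusted p = 0.069) or 3 (0.082), without boar pool 1 (0.15) or 3 (0.16) and without the intensity trend (0.11). CCL21, the other ligand of CCR7, had -0.48 with overlapping groups (limma adjusted p = 0.55), and CXCL13, which draws B cells, had 0.26 (limma adjusted p = 0.66). The chemokine receptor CXCR4 had -0.29 and S1PR1, through which lymphocytes leave tissue and which endothelium also makes, -0.19 (limma adjusted p = 0.27 and 0.31). Other S1PR1 probe sets had -0.12 and -0.03 with overlapping groups (limma adjusted p = 0.61 and 0.92). CCR7 itself was below the filter, so the receiving cells of CCL19 were not measured through it.

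Cytokine and receptor genes gave 0 calls among 6 tested probe sets. IL15, a survival cytokine of NK cells and memory T cells, read 742, 822 and 748 in barrow pools and 1035, 923 and 999 in boar pools, without overlap (difference -0.35, limma adjusted p = 0.13). TNFSF13, which sustains plasma cells, had -0.30 (limma adjusted p = 0.58) and IL4R -0.03 (limma adjusted p = 0.96). Of the 2 lists with 1 tested probe set outside the members, the adhesion gene CD58 had -0.09 and the chromatin organiser SATB1 -0.03 (limma adjusted p = 0.87 and 0.98).

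Genes of the leukocyte cytoskeleton and surface, to which CORO1A belongs, gave 0 calls among 17 tested probe sets outside it, with 15 below 0. ARPC1B, a subunit of the actin-nucleating Arp2/3 complex, had -0.44 (limma adjusted p = 0.15, against 0.022 in the fit with pools blocked by replicate number, where 2.35% of all tested probe sets passed), the small GTPase RAC2 -0.42 and the leukocyte phosphatase PTPRC, or CD45, -0.40 (limma adjusted p = 0.31 and 0.38). PTPRC read 101, 92.2 and 107 in barrow pools and 128, 139 and 144 in boar pools.

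**Figure D3:**
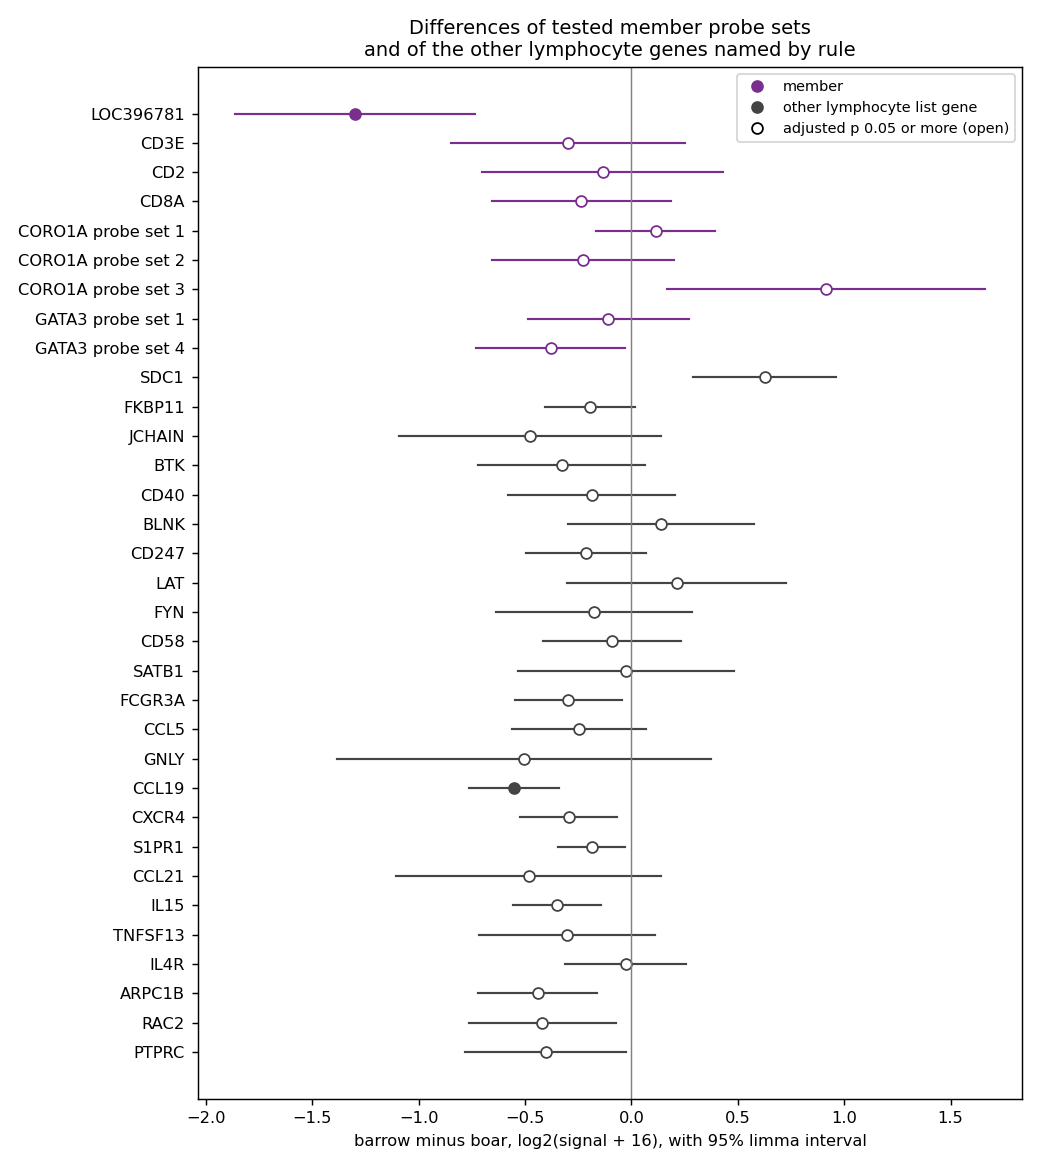
Barrow minus boar differences of log2(signal + 16) with 95% limma intervals (horizontal axis) for the 9 tested member probe sets (purple) and for the other lymphocyte genes named by rule (grey, the probe set with the smallest p of each gene). Only LOC396781 at -1.30 and CCL19 at -0.55 have an adjusted p under 0.05 (filled points).

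Lists of other cell types had medians on both sides of 0. In the macrophage list 0 of 10 tested probe sets passed and 9 were below 0, with a median of -0.28 and summed signals of 8575 to 9911 in barrow pools and 9236 to 11556 in boar pools. With pools blocked by replicate number 1 of the 10 passed, that of the complement gene C1QA (difference -0.44, limma adjusted p = 0.035, against 0.13 without the block). In the endothelial list 1 of 15 fell, a probe set of TEK, 13 were below 0, and the median was -0.17. The sums were 19265 to 20169 in barrow pools and 21886 to 22646 in boar pools. Another tested TEK probe set had -0.20 with overlapping groups (limma adjusted p = 0.73), and a dim one below the filter had 0.30. In the mast cell list 0 of 4 passed and 3 were below 0, with a median of -0.28. Sums were 1113 to 1517 in barrow pools and 1337 to 1562 in boar pools. Of the 4, 2 were of MS4A2 (-0.60 and -0.54), while MCT7 had -0.02 and KIT 0.11. Some of the differences below 0 in these lists were close to 0. The endothelial genes CDH5 and VWF had -0.0009 and -0.04 (CDH5) and -0.05 (VWF), and the macrophage gene MRC1 -0.02. Haemoglobin HBB, a measure of blood left in the tissue, read 626 to 765 in barrow pools and 687 to 755 in boar pools (difference -0.04, 95% interval -0.27 to 0.20). The red cell genes ALAS2, AHSP and HBM had 0.32, 0.34 and 0.05 (limma adjusted p = 0.24, 0.60 and 0.94). Of the 4 tested probe sets of the red cell list 0 passed and 3 were above 0, with a median of 0.19. In the neutrophil list the 1 tested probe set, of S100A9, had 0.22 without overlap (limma adjusted p = 0.64). Below the filter, LTF read 54.3, 101 and 55.8 in barrow pools and 14.8, 15.6 and 25.2 in boar pools. S100A8, ELANE and S100A12, also below the filter, had 0.44, 0.38 and -0.17 with overlapping groups. The adipocyte list had a median of 0.13, with 11 of 14 above 0. Of the 14, 2 passed and were higher in barrows, 1 of LEP, the hormone leptin, and 1 of FASN, the fatty acid synthase (differences 0.58 and 0.34), and 4 passed with the block, where 2 more of FASN were added. The calls of TEK and FASN were lost without pool 1 or 3 of either group (limma adjusted p 0.10 to 0.25), and that of LEP without barrow pool 1, boar pool 1 or boar pool 3 (0.067 to 0.14). The part of these cells in the lymphocyte values was not tested.

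In the epithelial list 2 probe sets were tested, with summed signals of 357 to 1604 in barrow pools and 128 to 204 in boar pools. PIP, a secreted protein of exocrine glands in humans, read 207, 1508 and 219 in barrow pools and 13.7, 3.8 and 29.9 in boar pools, without overlap. It rose in barrows, with a difference of 3.84 (95% interval 2.45 to 5.23, limma adjusted p = 0.018), and passed the filter through its barrow signals. The call was lost without boar pool 1 (limma adjusted p = 0.098) or boar pool 3 (0.065). It was also lost in another alternative, as the limma adjusted p over all alternatives reached 0.11. Without barrow pool 2, the highest, the difference was 2.93 (limma adjusted p = 0.0045). The keratin gene KRT8 had -0.20 in its tested probe set (limma adjusted p = 0.77). Below the filter, the keratin gene KRT19 read 49.6, 59.6 and 77.9 in barrow pools and 8.7, 3.6 and 10.4 in boar pools, and the epithelial adhesion gene EPCAM 76.2, 93.0 and 71.7 in barrow pools and 40.01, 38.6 and 15.9 in boar pools, both without overlap. PIP, KRT19, EPCAM and the tested probe set of SDC1, which epithelium also makes, were higher in every barrow pool than in every boar pool. The rest of the list was mixed. Below the filter, the keratin gene KRT18 had 0.04 and another KRT8 probe set 0.75, both with overlapping groups. CDH1, also below the filter, had -0.15 with overlap in 1 probe set and 0.59 without overlap in another. The part of epithelial cells in the SDC1 values was not tested.

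**Figure D4:**
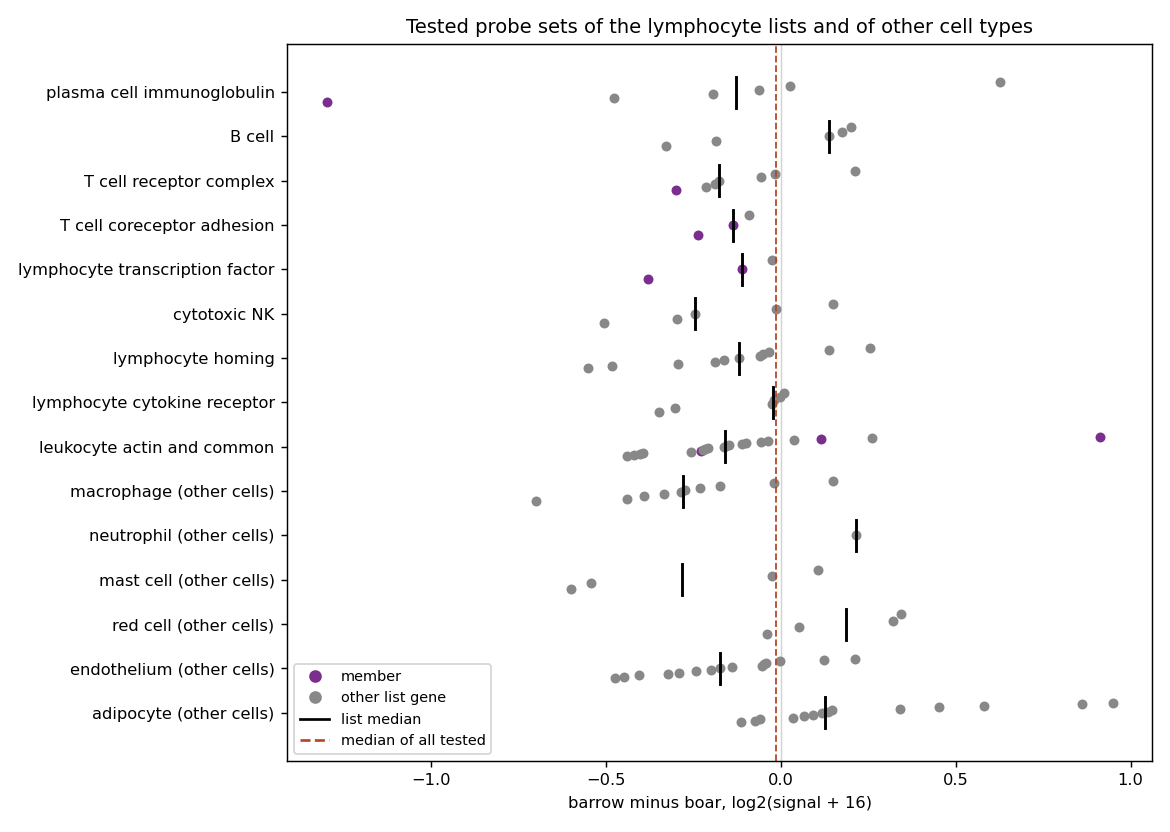
Barrow minus boar difference of log2(signal + 16) (horizontal axis) of every tested probe set in the 9 lymphocyte lists and in lists of other cell types, with members in purple, list medians as black bars and the median of all tested probe sets, -0.01, as a dashed line. The medians of all lymphocyte lists but that of B cells (0.14) lie at or below -0.02. The macrophage and mast cell medians are at -0.28, the latter over 4 tested probe sets of 3 genes. The epithelial list, with 2 tested probe sets, is left out.

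By pattern over the 6 pools, the named genes most like LOC396781 were TMED4, RCAN3, ACSL4, ST3GAL4 and NR2F2, with Pearson r of 0.987 to 0.993 on log2(signal + 16). The r of 336 other tested probe sets exceeded 0.9. Those most like CD3E were NUP37, C2H11orf98, LENG1, ATG13 and FBXO6, with r of 0.942 to 0.973, and 41 tested probe sets exceeded 0.9. None of these 10 genes was in a lymphocyte list, and with 6 arrays and 14399 probe sets such values are a description of order only.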

How the data were processed

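The 6 arrays, each of 1 RNA pool of 5 pigs, were all used. The authors deposited 1 linear signal intensity per probe set and array. The intensity was computed with MAS5, per the submitters' processing notes (version and settings: not given in the sources used here). The 2% trimmed mean of every array was 500.1, so each array had been scaled to 1 target. Median signals ran from 161 to 173. The number of arrays limits the precision, and dim MAS5 signals are noisy.

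Of 24123 probe sets 124 controls were left out, which left 23999. Of these, 10069 had 1 symbol, 198 several and 13732 none, and only those with 1 symbol were named. All 8 member symbols were found again in RefSeq by gene identifier. Barrow was compared with boar on log2(signal + 16) by limma 3.58.1 in R 4.3.3 (lmFit, eBayes with trend, 2-sided), with Benjamini-Hochberg adjustment over the 14399 probe sets in the upper 60%. The procedure was tested on simulated data. Figures were drawn with matplotlib 3.10.9.

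The members and lists were chosen with earlier results of these data known. Named genes are all members, every called gene of a list, up to 3 further genes per lymphocyte list with the smallest unadjusted p, and 5 genes nearest in pattern to LOC396781 and to CD3E; any other gene was named after its values were seen. The alternatives were pseudocounts of 4 and 64, no filter, the upper 40%, quantile normalization, no intensity trend, array weights, a replicate block and each pool left out. Nothing in the labels ties a replicate number to certain families, but residuals of same-numbered pools correlated at 0.12, 0.17 and 0.26, all above 0.1, so same-numbered pools were treated as pairs in an alternative fit. The main comparison has no block. A p-value here reflects variation from pool to pool. No sequences are printed, and the array gives no genome coordinates.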

Additional observations from a re-analysis of the deposited data

How the results depend on the processing

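LOC396781 kept its direction in all 14 alternatives, which the separation of its groups fixes. Its log2 difference was -1.30 without the filter and -1.30 without the intensity trend, where the call was lost (limma adjusted p = 0.094 and 0.16) and 0 members were called, and -1.10 with array weights. With 1 pool left out it ran from -1.53 to -0.92, and the count of members called from 0 to 1. With the replicate number as a block LOC396781 stayed called (limma adjusted p = 0.0066), and ARPC1B, C1QA and 2 probe sets of FASN were added, with no other call changed in any list. The immunoglobulin minus T cell difference ran from -1.54 to -0.83 with 1 pool left out and from -1.27 to -1.07 otherwise. Outside the members 1 probe set of the lymphocyte lists was called, against 0 without the intensity trend, 3 with array weights (CCL19, SDC1 and IL15), 2 with the replicate block and 0 to 2 with 1 pool left out. The count over all probe sets was 167, against 96 without a filter, 32 without the intensity trend, 425 with array weights, 338 with the replicate block and 24 to 291 with 1 pool left out. Of 484 further values of 36 single probe sets, 25 lost a call, not all listed above, and 4 gained one. Those that lost a call were all of CCL19, TEK, LEP, FASN and PIP. The sign changed in 11 of the 484, all with 1 pool left out and none called with or without it. Among them were CD2 (0.07 without boar pool 3), GATA3 probe set 1 (0.02 without boar pool 2) and LAT (-0.03 without boar pool 3). Signal over background limits CD79B, CD4 and the dim GATA3 probe sets.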

Other observations

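Genes whose products bind immunoglobulin were looked at after their values had been seen. FCGRT, the receptor that protects immunoglobulin G from breakdown and carries it across cells, read 4998, 5108 and 4890 in barrow pools and 5067, 4920 and 4729 in boar pools, a log2 difference of 0.03 (95% interval -0.12 to 0.17, limma adjusted p = 0.92). MS4A2, the beta chain of the high-affinity immunoglobulin E receptor of mast cells, was lower in every barrow pool than in every boar pool in both of its probe sets. These read 239, 161 and 242 in barrow pools against 309, 294 and 341 in boar pools, and 144, 141 and 131 in barrow pools against 222, 160 and 290 in boar pools (differences -0.54 and -0.60, limma adjusted p = 0.20 and 0.24). FCER1G, the gamma chain shared by several of these receptors, read 483, 508 and 437 in barrow pools and 610, 612 and 529 in boar pools (difference -0.29, limma adjusted p = 0.32). The KIT receptor, also of mast cells, had 0.11 (limma adjusted p = 0.80). The 2 probe sets of PIGR, the epithelial carrier of polymeric immunoglobulin, were below the filter, at 1.4 to 40.3 in barrow pools and 1.3 to 9.0 in boar pools.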
